A study of Homo sapiens with 6 samples.

Results

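Integrin subunit genes were followed in MDAMB468 cells with and without overexpression of IGFBP2, a secreted protein that binds insulin-like growth factors. The genes were chosen by name, as ITGA2, ITGA3, ITGA5, ITGAV, ITGB1, ITGB3, ITGB5, ITGB6, ITGB8 and ITGB1BP1, the last of which encodes a cytoplasmic binding partner of the integrin beta 1 tail. Of these 10 genes, 8 were among the 10487 genes of the expression table, and all 8 entered the comparison. ITGA5 and ITGB3 were not analysed here.

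MDAMB468 cells come from a human triple negative breast tumour and depend on EGFR. The IGFBP2 overexpression cells (MDAMB468-VHP-IGFBP2) carried an activator built on a Cas9 that no longer cuts DNA, were selected with blasticidin, received a guide RNA against IGFBP2 and were sorted for the fluorescence of the guide vector. The control cells are given as wild type, both groups were untreated, and the sources used here do not say whether the controls carried the activator without a guide. The cells of each group had 3 libraries, described as biological replicates, and p-values measure the spread between these libraries. The paper describes a single line with IGFBP2 overexpression, so variation between lines made separately is not covered by these p-values. IGFBP2 itself (chr2:216632828-216664436, GRCh38) was at 93.5, 87.3 and 136 CPM (reads of the gene, scaled to the size of the library) in control replicates 1, 2 and 3. It was at 566, 1176 and 498 CPM in IGFBP2 overexpression replicates 1, 2 and 3, so the activated gene followed the labels in every library.

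An integrin is a membrane receptor made of an alpha and a beta subunit, which together bind the extracellular matrix outside the cell and, through the short tail of the beta subunit, talin and kindlin inside it. ITGB1 joins many alpha subunits, among them the collagen receptor subunit ITGA2 and the laminin receptor subunit ITGA3, whereas ITGAV joins ITGB1, ITGB3, ITGB5, ITGB6 or ITGB8 to form receptors for ligands with the tripeptide Arg-Gly-Asp (RGD), such as vitronectin, fibronectin and the latency peptide of TGF-beta. IGFBP2 carries an RGD motif and is known to bind integrin alpha 5 beta 1.

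The coding sequences below show tail motifs that subunits of the 2 kinds hold, though not all of them, and the RGD codons of IGFBP2. They were read from the MANE Select transcripts of GENCODE 44 on GRCh38, on the strand of the gene and 5′ to 3′, with the codons of the motif in capitals. For the alpha subunits the capitals mark the GFFKR motif, which lies just inside the membrane and contacts the beta subunit. The coordinates of each window that is split between exons include the intron.

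ITGA2, chr5:53090060-53090542, plus strand, exons 29 and 30: aagctcGGCTTCTTCAAAAGAaaatat
ITGA3, chr17:50087867-50088248, plus strand, exons 24 and 25: aagtgcGGCTTCTTCAAGCGAgcccgc
ITGAV, chr2:186676933-186677220, plus strand, exons 29 and 30: aggatgGGCTTTTTTAAACGGgtccgg

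For the beta subunits the capitals mark the NPxY motif (x for any residue), to which the phosphotyrosine-binding-type domains of talin and ITGB1BP1 bind. ITGB1 has the motif at 2 places, and both are shown.

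ITGB1 upstream motif, chr10:32901609-32908370, minus strand, exons 15 and 16: acgggtgaaAATCCTATTTATaagagtgcc
ITGB1 downstream motif, chr10:32901573-32901602, minus strand, exon 16: actgtggtcAATCCGAAGTATgagggaaaa
ITGB5, chr3:124763692-124764393, minus strand, exons 14 and 15: atggcttcaAATCCATTATACagaaagcct
ITGB6, chr2:160101808-160107681, minus strand, exons 14 and 15: acgggaaccAATCCACTCTACagaggatcc

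The RGD codons of IGFBP2, the gene that was activated, lie in its exon 4.

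IGFBP2, chr2:216664018-216664044, plus strand, exon 4: cccaccatcCGGGGGGACcccgagtgt

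Within the last 80 residues, GFFKR was found in 5 of the proteins of 10054 genes of the table with such a transcript (0.0497%), all of them integrin alpha subunits (ITGA2, ITGA3, ITGAV, ITGA6 and ITGAE). The alpha subunit ITGA9 did not have it there. NPxY was found in the last 80 residues of 59 (0.587%), among them ITGB1, ITGB5 and ITGB6, and not of ITGB8, ITGB2 or ITGB4. RGD was found at any position in 854 (8.49%), so its presence alone does not mark an integrin ligand.

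None of the 8 integrin genes passed the test between IGFBP2 overexpression and control cells (0 higher and 0 lower, limma with Benjamini-Hochberg adjustment over all genes, adjusted p under 0.05), and none did in limma voom or the other alternatives to this fit. Over all 10487 genes 66 passed (0.629%), of which 45 were higher (0.429%) and 21 were lower (0.200%) with IGFBP2 overexpression. The paper, which tested this comparison with edgeR, reports a much longer list of modulated genes, many of them related to cell adhesion. No edgeR test was run here, and that list was not compared with the limma results. The limma counts therefore do not show whether integrin genes would pass in edgeR. Under a looser rule, an unadjusted p under 0.05, 2 of the 8 were higher and 0 lower, namely ITGAV and ITGA3, against 13.0% of all genes in either direction, 6.88% higher and 6.12% lower. Taken library by library, 3 of the 8 had groups that did not overlap, with ITGAV and ITGA3 higher and ITGB5 lower, against 18.0% of all genes in either direction, 9.43% higher and 8.61% lower. The median log2 fold change of the 8 was -0.11, where all genes had 0.0001. Each log2 fold change is on the log2(CPM + 1) scale, which understates the change of genes with few reads.

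ITGAV (ENSG00000138448, chr2:186590010-186680901) encodes the alpha subunit of the vitronectin receptor family. It was at 24.6, 22.3 and 23.5 CPM in control replicates 1, 2 and 3, and at 37.0, 34.2 and 32.8 CPM in IGFBP2 overexpression replicates 1, 2 and 3. All IGFBP2 overexpression libraries lay above all control libraries, and the libraries of each group lay close together. The mean was 23.5 ± 1.20 CPM in control and 34.7 ± 2.13 CPM with IGFBP2 overexpression (SD, n = 3 in each), a ratio of means of 1.48. The log2 fold change was 0.55 (standard error 0.17, 95% interval 0.16 to 0.94), with an adjusted p of 0.236 from limma, and its p-value was at place 505 of all genes. At this standard error a 1.97-fold difference would have been needed to pass. These values rest on 58 to 111 reads a library. As the RNA came from bulk cells, a difference in the number of cells that express a gene and in the RNA per cell cannot be told apart, for ITGAV and for every gene that follows.

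ITGA3 (ENSG00000005884, chr17:50055968-50090481), the alpha subunit of the main laminin receptor with ITGB1, was at 60.6, 51.5 and 42.9 CPM in the control libraries and at 81.9, 74.9 and 65.4 CPM in the IGFBP2 overexpression libraries. The groups did not overlap, although the lowest IGFBP2 overexpression library was only slightly above the highest control library. The mean was 51.6 ± 8.87 CPM against 74.0 ± 8.28 CPM (SD, n = 3 in each), a ratio of 1.43. The log2 fold change of 0.52 (standard error 0.20, 95% interval 0.063 to 0.98) did not pass in limma (adjusted p = 0.320).

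ITGA2 (ENSG00000164171, chr5:52989340-53094779), the alpha subunit of a collagen receptor, was the lowest of the 8 genes in both groups. It was at 12.0, 9.18 and 20.6 CPM in the control libraries and at 16.0, 10.01 and 7.23 CPM in the IGFBP2 overexpression libraries. The groups overlapped, with the highest value in control replicate 3 and the lowest in IGFBP2 overexpression replicate 3. Only 22 to 54 reads a library stand behind these values, and the coefficient of variation was 42.8% in control and 40.4% with IGFBP2 overexpression. The log2 fold change was -0.30 (95% interval -1.07 to 0.47, limma adjusted p = 0.774), and a 3.80-fold difference would have been needed to pass.

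ITGB1 (ENSG00000150093, chr10:32887273-33005792), the shared beta subunit of the ITGA2 and ITGA3 receptors, was at 42.4, 33.9 and 23.0 CPM in the control libraries and at 25.3, 37.8 and 23.7 CPM in the IGFBP2 overexpression libraries. The range of the control libraries held all the IGFBP2 overexpression libraries. Its log2 fold change was -0.18 (95% interval -0.79 to 0.44, limma adjusted p = 0.840). ITGB1BP1 (ENSG00000119185, chr2:9403475-9423528), whose product binds the ITGB1 tail at an NPxY motif and restrains its activation, was at 92.8, 68.7 and 76.4 CPM against 78.0, 97.8 and 77.5 CPM. These groups overlapped as well, and the log2 fold change was 0.092 (95% interval -0.36 to 0.55, limma adjusted p = 0.894).

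ITGB5 (ENSG00000082781, chr3:124761948-124901418), which forms a vitronectin receptor with ITGAV, was by far the highest of the 8 genes. It was at 375, 347 and 356 CPM in the control libraries and at 280, 292 and 328 CPM in the IGFBP2 overexpression libraries, so all IGFBP2 overexpression libraries lay below all control libraries. The mean was 359 ± 14.1 CPM against 300.2 ± 24.7 CPM (SD, n = 3 in each), a ratio of 0.836. The log2 fold change of -0.26 (standard error 0.17, 95% interval -0.65 to 0.13) did not pass in limma (adjusted p = 0.577), with 719 to 1687 reads a library.

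ITGB6 (ENSG00000115221, chr2:160099667-160200313) and ITGB8 (ENSG00000105855, chr7:20330702-20415754) encode the beta subunits of the ITGAV receptors that bind and activate latent TGF-beta. ITGB6 was at 28.6, 33.4 and 61.5 CPM in the control libraries and at 25.7, 28.7 and 31.2 CPM in the IGFBP2 overexpression libraries. The value in control replicate 3 stood well above the other 5. The log2 fold change of ITGB6 was -0.44 (95% interval -1.07 to 0.20, limma adjusted p = 0.563), and it was -0.12 without control replicate 3. ITGB8 was at 23.1, 29.8 and 30.3 CPM against 31.6, 21.9 and 26.9 CPM, and its groups overlapped almost entirely (log2 fold change -0.051, 95% interval -0.53 to 0.42, limma adjusted p = 0.949).

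Control replicate 3 held the highest value of all 6 libraries for ITGA2 and ITGB6 and the lowest for ITGA3 and ITGB1. It was also the library with the fewest reads on the listed genes, 2497353 where the others held 2547997 to 4579587, and with the most COL1A1, a fibroblast collagen gene, at 27.5 CPM where the others had 9.36 to 15.8 CPM. Their part in the integrin values was not tested. All 10 epithelial marker genes were present, with a summed level of 5828 to 7203 CPM in control and 6194 to 7304 CPM in IGFBP2 overexpression libraries. In limma 0 of them passed, and 2 were lower at an unadjusted p under 0.05, where 6.12% of all genes were lower. Of 10 fibroblast markers COL1A1 alone was among the listed genes, and of 10 blood cell markers 0 were.

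**Figure D1:**
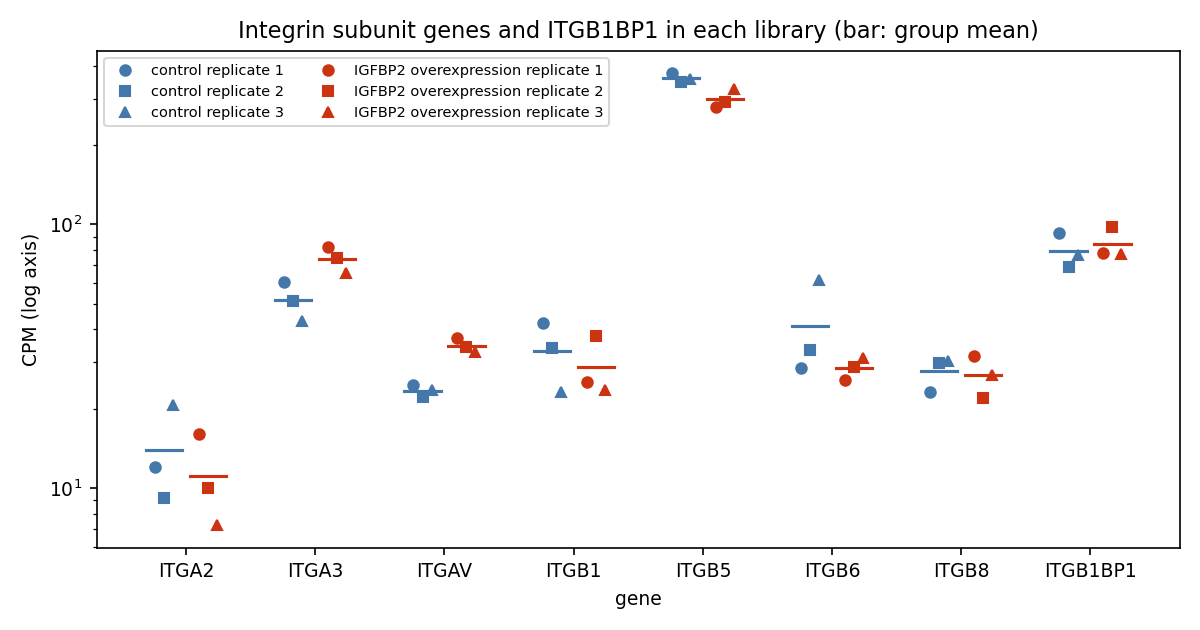
Level of the 8 integrin genes in each library, in CPM on a log axis, with control libraries in blue, IGFBP2 overexpression libraries in red, the replicate number by symbol and a bar at each group mean. The red points lie above the blue for ITGAV and ITGA3 and below them for ITGB5, and the groups overlap for the other 5 genes, with control replicate 3 standing apart for ITGB6 at 61.5 CPM.

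Because each read marks the 3′ end of a transcript, CPM was not divided by transcript length when genes were compared with each other, and differences in capture between genes were not examined. In control cells the levels ran from ITGB5 through ITGB1BP1, ITGA3, ITGB6, ITGB1, ITGB8 and ITGAV to ITGA2. The libraries of ITGB5, ITGB1BP1 and ITGA3 were apart from each other, those of each next pair from ITGA3 to ITGAV overlapped, and ITGA2 lay below ITGAV in every control library. In IGFBP2 overexpression cells ITGAV was in place 4 instead of place 7, after ITGB5, ITGB1BP1 and ITGA3 and before ITGB1, ITGB6, ITGB8 and ITGA2. Here the neighbours ITGB1BP1 and ITGA3 overlapped, ITGAV lay below ITGA3, the neighbours from ITGAV to ITGB8 overlapped, and ITGA2 was again below the rest.

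The summed level of the 7 subunit genes was 566, 527 and 558 CPM in the control libraries and 498, 500 and 515 CPM in the IGFBP2 overexpression libraries. ITGB5 made up most of it, with 66.2%, 65.8% and 63.8% in control replicates 1, 2 and 3 and 56.3%, 58.5% and 63.7% in IGFBP2 overexpression replicates 1, 2 and 3. Its share was thus lower in every IGFBP2 overexpression library, by a narrow margin in replicate 3. ITGAV took 4.36%, 4.22% and 4.21% in control and 7.44%, 6.84% and 6.38% in IGFBP2 overexpression libraries, and ITGA3 10.7%, 9.77% and 7.69% against 16.4%, 15.0% and 12.7%. Neither of these shares overlapped between the groups, whereas those of ITGA2, ITGB1, ITGB6 and ITGB8 did. ITGB5, ITGAV and ITGA3 are also the genes whose CPM did not overlap, so their shares are not a separate result. In CPM, 18.0% of all genes did not overlap, and such a share was not counted for other groups of genes. The shares of a library sum to the whole, so they do not vary independently of each other.

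Subunits that form a receptor were then compared as a ratio within each library. The ratio of 2 CPM values does not depend on how the library was scaled, while the log2 ratio of CPM + 1 that was tested depends on it slightly through the pseudocount. ITGB5 was 15.2, 15.6 and 15.2 times the level of ITGAV in the control libraries and 7.57, 8.55 and 9.98 times in the IGFBP2 overexpression libraries. The control ratios were nearly equal and all IGFBP2 overexpression ratios lay below them, with a difference of -0.81 in the mean log2 ratio of CPM + 1. ITGB6 to ITGAV was 1.16, 1.5 and 2.62 in control and 0.695, 0.840 and 0.950 in IGFBP2 overexpression libraries. The log2 difference was -0.98, and -0.66 without control replicate 3. In CPM, ITGB6 was above ITGAV in every control library and below it in every IGFBP2 overexpression library, with capture of the 2 genes not examined. ITGB8 to ITGAV was 0.937, 1.34 and 1.29 against 0.853, 0.642 and 0.820 (log2 difference -0.60), again without overlap. These 3 ratios share ITGAV as the denominator and are not independent.

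Against the common partner ITGB1, ITGA3 was at 1.43, 1.52 and 1.86 times its level in the control libraries and at 3.23, 1.98 and 2.76 times in the IGFBP2 overexpression libraries, without overlap (log2 difference 0.70). ITGAV to ITGB1 was 0.581, 0.656 and 1.02 against 1.46, 0.906 and 1.39, and here the groups overlapped (log2 difference 0.72). ITGA2 to ITGB1 had a log2 difference of -0.12. Each of the 4 ratios without overlap had p = 0.1 in a two-sided exact permutation test, the smallest p that 3 libraries against 3 allow. No ratio could therefore have passed 0.05 in this test. After Benjamini-Hochberg adjustment over the 6 ratios the p of these 4 was 0.15. Of the 4, 3 contain ITGAV, whose own libraries did not overlap between the groups. The share of other gene pairs without overlap was not counted, and 18.0% of all single genes did not overlap. ITGAV to ITGB1 had p = 0.2 (adjusted 0.24) and ITGA2 to ITGB1 p = 0.8 in the same exact test.

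**Figure D2:**
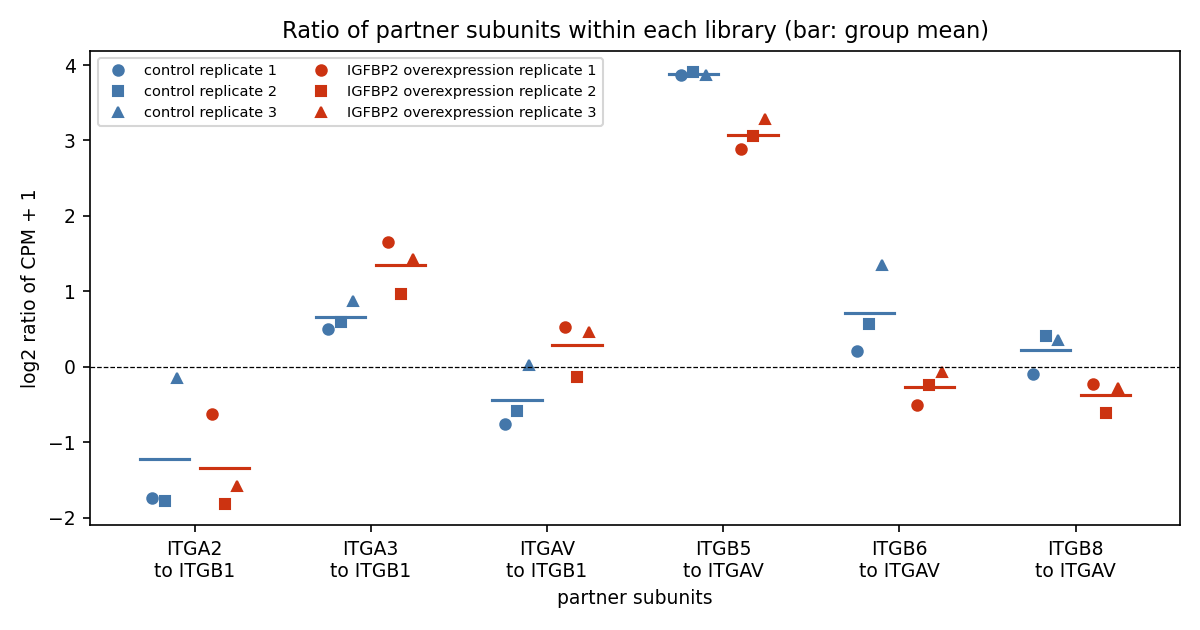
Log2 ratio of CPM + 1 between the subunits of 6 receptors within each library (control in blue, IGFBP2 overexpression in red, bar at the group mean, dashed line at equal levels). The 3 ratios to ITGAV lie lower and the ratio of ITGA3 to ITGB1 higher in every IGFBP2 overexpression library, by 0.60 to 0.98 in the means, while ITGAV to ITGB1 and ITGA2 to ITGB1 overlap between the groups.

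The genes whose pattern over the 6 libraries was most like that of ITGAV, which had the smallest p-value of the 8 genes, were RHBDF2, PTGFRN, CMIP, ANXA5 and TMEM43. The measure was the root mean square difference of log2(CPM + 1), each gene centred on its own mean, which was 0.0683, 0.0696, 0.0727, 0.0766 and 0.0779 for these 5 genes and 0.384 for the median gene. PTGFRN was also close to ITGAV in level, at 23.8, 21.4 and 21.4 CPM in the control libraries and 33.5, 30.02 and 33.5 CPM in the IGFBP2 overexpression libraries. The log2 fold changes of the 5 genes ran from 0.46 to 0.59, and none passed in limma. As they were picked for likeness to ITGAV in the same 6 libraries, fold changes near its own follow from the choice.

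Of 26 integrin subunit genes of the human genome that were listed, 12 were in the table, so 5 more could be described beside the 7 above. None of the 5 passed (limma, 0 higher and 0 lower), and their median log2 fold change was 0.42. At an unadjusted p under 0.05, 2 of the 5 were higher and 0 lower, where 6.88% of all genes were higher and 6.12% lower. ITGA9, which with ITGB1 binds tenascin-C and other ligands, was at 0.888, 4.45 and 1.21 CPM in the control libraries and at 8.97, 7.75 and 9.53 CPM in the IGFBP2 overexpression libraries. The groups were apart, but the control values stand for 4, 16 and 3 reads. Its log2 fold change was 1.78 (standard error 0.36, limma adjusted p = 0.0902), the largest of the 12 subunits, and it passed without control replicate 2 (2.25) and at a pseudocount of 5 (0.97).

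ITGA6 and ITGB4 form the laminin receptor of hemidesmosomes. ITGB4 was at 61.0, 42.8 and 60.7 CPM against 78.0, 84.6 and 58.1 CPM, with a log2 fold change of 0.42 (limma adjusted p = 0.481, and 0.25 without control replicate 2). ITGA6 was at 97.9, 69.5 and 79.7 CPM against 78.7, 65.2 and 62.1 CPM, with a log2 fold change of -0.25 (limma adjusted p = 0.660, and -0.12 without control replicate 1). Both overlapped between the groups. ITGB2, the beta subunit of leukocyte integrins, was low at 7.77, 9.46 and 7.68 CPM against 18.7, 11.0 and 12.2 CPM, without overlap and without passing (log2 fold change 0.65, limma adjusted p = 0.286). ITGAE, which joins ITGB7 in the receptor for E-cadherin, did not pass either (log2 fold change 0.11, limma adjusted p = 0.870).

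**Figure D3:**
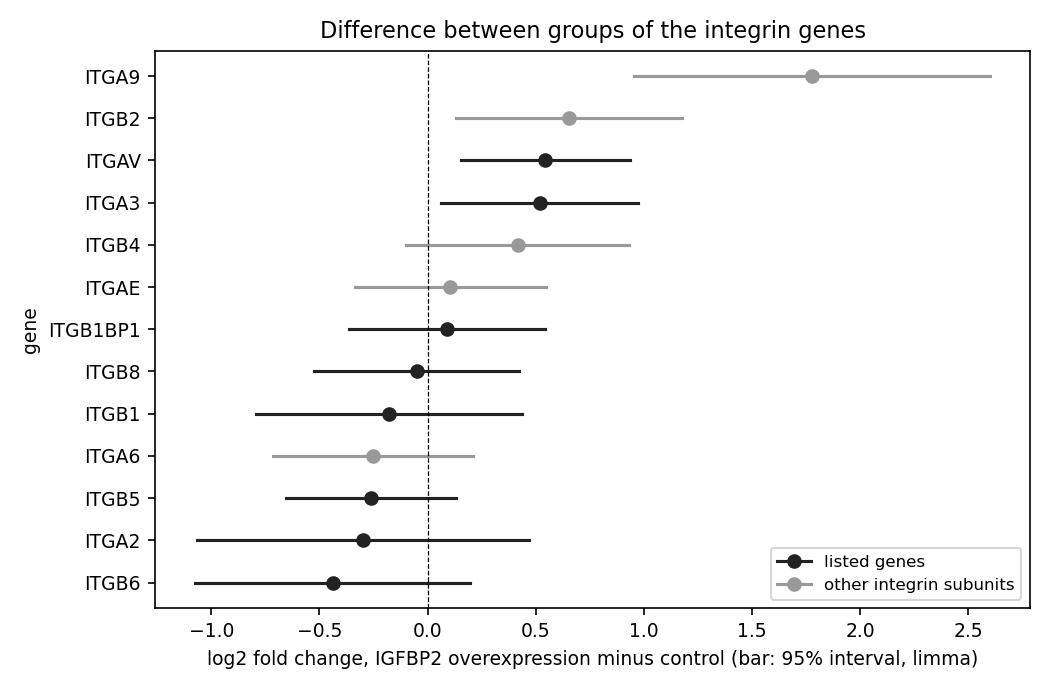
Log2 fold change (IGFBP2 overexpression minus control) of the 13 integrin genes in the table with its 95% interval from limma, for the 8 named genes in black and the 5 other subunits in grey. The intervals of ITGA9, ITGB2, ITGAV and ITGA3 lie above 0 before adjustment, the other 9 include 0, and the widest among the black ones is that of ITGA2, from -1.07 to 0.47.

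The other genes of the pathway were taken from 5 lists, one of them the 5 subunits above, of which 108 of 155 genes were in the table and 3 passed, all higher. These 3 were matrix ligands, of which 18 of 40 listed genes were in the table, with 3 higher, 0 lower and a median log2 fold change of 0.27. At an unadjusted p under 0.05, 4 matrix ligands were higher and 2 lower. Over all genes the shares at this rule were 6.88% higher and 6.12% lower. TGFBI, a secreted matrix protein that binds integrins and has an RGD motif of its own, rose from 8.44, 10.01 and 10.5 CPM to 196, 198 and 104 CPM (log2 fold change 3.92, standard error 0.27, limma adjusted p = 0.00169). Its motif is shown here for comparison with that of IGFBP2.

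TGFBI, chr5:136061508-136061534, plus strand, exon 15: cctcaggaaAGAGGGGATgaacttgca

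LAMB3, a chain of laminin-332, which is the ligand of the receptors with ITGA3 and ITGA6, rose from 7.99, 4.45 and 4.04 CPM to 63.9, 41.3 and 37.1 CPM (log2 fold change 2.91, standard error 0.29, limma adjusted p = 0.00907). COL4A2, a collagen chain of basement membranes, rose from 3.77, 3.62 and 0.404 CPM to 21.8, 15.2 and 18.1 CPM (log2 fold change 2.61, standard error 0.43, limma adjusted p = 0.0425). The control values of COL4A2 stand for 17, 13 and 1 reads, and it no longer passed without any 1 of control replicate 2 (2.89) and the IGFBP2 overexpression replicates (2.48, 2.73 and 2.61), nor at a pseudocount of 0.1 (3.24). TGFBI and LAMB3 passed in all 14 alternatives. The subunits of the collagen and laminin receptors, ITGA2, ITGA3, ITGA6, ITGB1 and ITGB4, did not pass in the same fit, and the difference between ligand and receptor genes was not itself tested.

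Inside the cell, 50 of 56 listed focal adhesion genes were in the table, and none passed in limma (median log2 fold change 0.099). Of the 50, 3 were higher and 1 lower at an unadjusted p under 0.05, where all genes had 6.88% higher and 6.12% lower. The smallest p-values were those of LPP, LIMS2 and GIT1. LPP, a zyxin-related adaptor, was at 14.9, 29.5 and 25.5 CPM against 10.5, 8.39 and 13.8 CPM (log2 fold change -1.0, limma adjusted p = 0.196). LIMS2 encodes a partner of integrin-linked kinase, and its log2 fold change was 0.72 (limma adjusted p = 0.267). GIT1, a scaffold that promotes the turnover of adhesions, was at 67.9, 75.7 and 55.4 CPM against 101, 113 and 85.1 CPM, and also did not pass (log2 fold change 0.58, limma adjusted p = 0.284).

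Of 33 listed membrane partners and trafficking genes 32 were in the table, and none passed (median log2 fold change 0.10). An unadjusted p under 0.05 was reached by 4 higher and 3 lower genes, where all genes had 6.88% higher and 6.12% lower. EPS8, an actin-regulating substrate of EGFR, was at 11.3, 8.90 and 8.90 CPM against 26.1, 22.3 and 16.8 CPM (log2 fold change 1.07, limma adjusted p = 0.0871). PLAUR, the urokinase receptor, which associates with integrins at the membrane, was at 86.4, 49.5 and 41.6 CPM against 153, 122 and 110 CPM (log2 fold change 1.16, limma adjusted p = 0.141). CIB1, which binds integrin alpha tails, had a log2 fold change of 0.71 (limma adjusted p = 0.184). All 3 lay higher in every IGFBP2 overexpression library, but they were named for the smallest p-values of the list. Of the 32 genes, 7 lay higher without overlap, against 9.43% of all genes. Another 3 lay lower without overlap (CD82, RAB11FIP1 and ARF6), against 8.61% of all genes. EPS8 and PLAUR passed in some alternatives, EPS8 at a pseudocount of 5 (0.85). PLAUR passed in 4 of the 14, limma voom among them, with values of 1.10 to 1.46.

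Latent TGF-beta, the ligand of the receptors with ITGB6 and ITGB8, and its carriers were represented by 3 of 9 listed genes. None passed in limma (median log2 fold change 0.082). Of the 3, 1 was lower at an unadjusted p under 0.05, where 6.12% of all genes were lower. LTBP1, which anchors latent TGF-beta in the matrix, was at 11.1, 23.6 and 24.3 CPM against 12.9, 10.7 and 8.21 CPM. Control replicate 1 lay within the range of the IGFBP2 overexpression libraries, and the log2 fold change was -0.78 (limma adjusted p = 0.329). LTBP3 had a log2 fold change of 0.19 (limma adjusted p = 0.793, and 0.091, 0.033 and 0.41 without control replicate 1 and IGFBP2 overexpression replicates 2 and 3) and TGFB2 of 0.082 (limma adjusted p = 0.905).

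**Figure D4:**
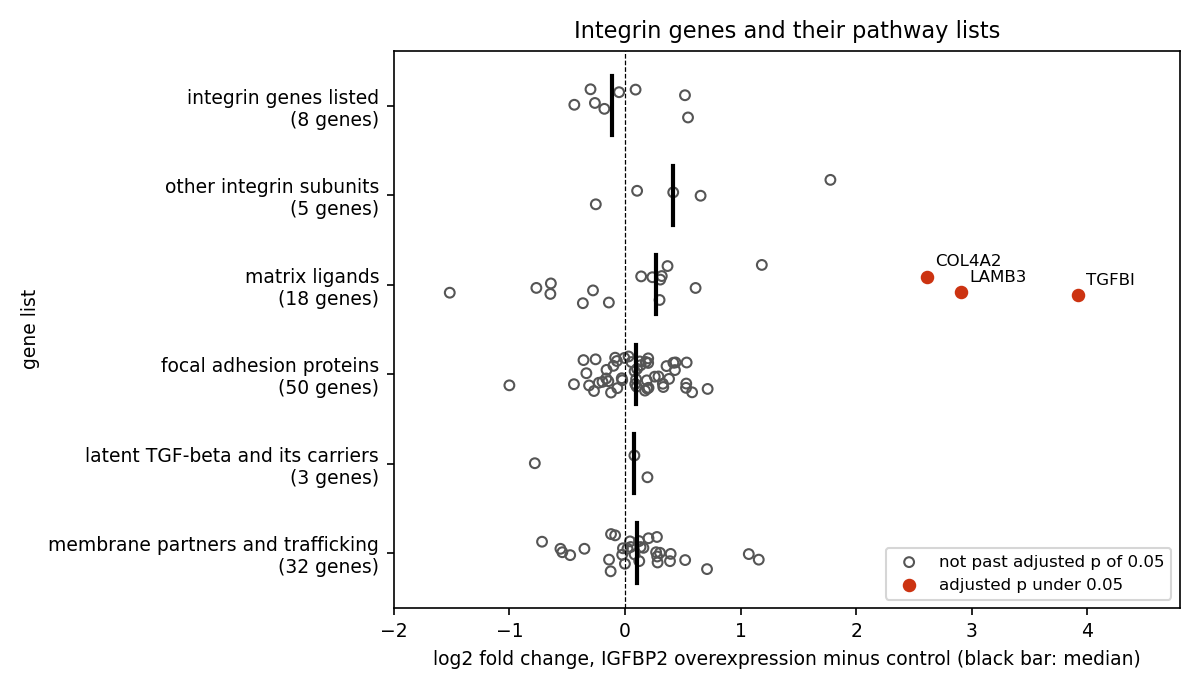
Log2 fold change (IGFBP2 overexpression minus control) of each gene in the table, by list, with the median of a list as a black bar, genes past an adjusted p of 0.05 filled in red and the number of genes tested beside each name. The 3 filled points, COL4A2, LAMB3 and TGFBI, are all matrix ligands between 2.61 and 3.92, and the 8 integrin genes listed at the top lie between -0.44 and 0.55.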

How the data were processed

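RNA of 3 control and 3 IGFBP2 overexpression replicates was sequenced by the QuantSeq 3′ method. The authors used bbduk for trimming, STAR for alignment to hg38, HTSeq for read counts per gene (version 0.9.1 in the submitters' processing notes) and edgeR for normalization. They took their list of modulated genes from the same package, among genes with a mean CPM above 5 in either group. The deposited values are log2(CPM + 1). Positions came from GENCODE 44 on GRCh38, which matched 10462 of the 10487 identifiers. CPM was recovered by undoing the log2 and subtracting the pseudocount of 1. Whole reads were recovered from its steps (100.0% of values within 0.1 read), with 2497353 to 4579587 reads a library on the listed genes. The paper's methods for these libraries name no step that collapses reads by molecular identifiers.

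Limma (version 3.58.1, R 4.3.3) without a trend was fitted to all genes on the log2 scale as deposited. Group was the only term, with Benjamini-Hochberg adjustment at 0.05. The fit was also run on simulated data with larger changes than those of the 8 integrin genes. That run does not show how well changes of their size are found. Ratios were tested with an exact permutation test written in Python 3.11.15. The alternatives were a mean-variance trend, limma voom on the recovered reads, scaling by library size or upper quartile, pseudocounts of 0.1 and 5, a mean CPM above 10, the replicate number as a block, and the omission of each library. The correlation of the deviations of equally numbered libraries was 0.172, -0.064 and 0.0842, so these libraries were taken to share only a number.

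The integrin genes and the lists were chosen with earlier results of these data known. Named genes are all listed integrin genes in the table, IGFBP2, ITGA6, ITGB4, per list every gene that passed and the 3 smallest p-values, and the 5 genes most like ITGAV, which had the smallest p of the 8 integrin genes named for the comparison. COL1A1 was named as the only fibroblast marker in the table. ITGAE was added after its values were seen, and so were CD82, RAB11FIP1 and ARF6, for lying lower without overlap.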

Additional observations from a re-analysis of the deposited data

How the results depend on the processing

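The number of integrin genes past the threshold was 0 of 8 in all 14 alternatives, and IGFBP2 passed in all 14. The number of genes past the threshold among all genes moved from 66 to 160 with a mean-variance trend, 141 with limma voom, 37 at a pseudocount of 0.1 and 129 at a pseudocount of 5. With 1 library left out it ranged from 12 to 79, and was 17 without control replicate 3, 12 without IGFBP2 overexpression replicate 1 and 13 without IGFBP2 overexpression replicate 2. Over the pathway lists it moved from 3 to 5 with the trend, 5 with limma voom and 7 at a pseudocount of 5, and ranged from 2 to 4 with 1 library left out. The median log2 fold change of the integrin genes ranged from -0.14 to 0.011 with 1 library left out, the latter without control replicate 3. The sign of log2 fold changes near 0 turned when 1 library was left out. ITGA2 ranged from -0.58 to 0.0056, the latter without control replicate 3, and ITGB1 from -0.41 to 0.016, the latter without control replicate 1. ITGB8 ranged from -0.17 to 0.081, and was 0.0036 and 0.017 without control replicates 2 and 3 and 0.081 without IGFBP2 overexpression replicate 2. ITGB1BP1 ranged from -0.017 to 0.21, and was -0.0048 without control replicate 2 and -0.017 without IGFBP2 overexpression replicate 2. TGFB2 ranged from -0.078 to 0.18, the former without IGFBP2 overexpression replicate 3. The log2 ratio of ITGA2 to ITGB1 ranged from -0.48 to 0.42, above 0 without control replicate 3 (0.42) and without IGFBP2 overexpression replicate 2 (0.12). For these changes the cause was not tested. With the replicate number as a block, 55 genes passed, of which 42 also passed without it, and 0 integrin genes. A sign-flip test of the ratios over the numbered pairs cannot go below an exact p of 0.25. ITGA2 had 22 to 54 reads a library. Its counting error alone would give a coefficient of variation of 21.3% at the lowest of these, where 42.8% and 40.4% were observed.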
